A study of Homo sapiens with 32 samples.

Results

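Transcripts of 9 chemokine genes, CXCL1, CXCL2, CXCL3, CXCL5, CXCL6, CXCL8, CXCL16, CCL2 and CCL20, were followed in lung cancer cells exposed to an inhibitor of gamma-secretase. The genes were taken by symbol, and 14 of the 54675 probe sets of the array carry one of these symbols alone. Their 9 genes are among 19775 genes tested. A549, derived from a lung adenocarcinoma, and the line labelled H460a (H460 in the series text), derived from a large cell lung carcinoma, received vehicle or RO4929097 at 2 µM for 6 or 24 h. Each of the 8 groups has 4 arrays, and no genetic change to either line is labelled. Both lines were plated sparsely and rested overnight before dosing, and whether the arrays of a group stand for different cultures is not labelled. The p-values therefore speak of variation among arrays that could be technical only. Levels are log2 of the deposited intensity, and differences are log2 values ± the standard error of a limma fit over all 32 arrays, with n = 4 arrays per group. A difference is called where the limma p, adjusted by the Benjamini-Hochberg method over the 19775 genes, is under 0.05.

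Chemokines are small secreted proteins that steer migrating leukocytes through G protein-coupled receptors. CXCL1, CXCL2, CXCL3, CXCL5, CXCL6 and CXCL8 share a glutamate-leucine-arginine motif and attract neutrophils through CXCR2, with CXCR1 also bound by CXCL6 and CXCL8. CXCL16 is made as a transmembrane protein that ADAM10 and ADAM17 release, and its receptor is CXCR6. CCL2 attracts monocytes through CCR2, and CCL20 attracts dendritic cells and lymphocytes through CCR6. Several of these genes are classical targets of NF-kappaB, and lung epithelial cells and carcinoma cells are known sources of the neutrophil group. RO4929097 blocks gamma-secretase, which releases the intracellular part of Notch receptors, and the series title calls it a Notch inhibitor.

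The 6 neutrophil chemokine genes lie in 1 cluster on chromosome 4, in the order CXCL8, CXCL6, CXCL1, CXCL5, CXCL3 and CXCL2, with PF4V1, PF4 and PPBP the other protein-coding genes between the first and the last of them (9 in all). CXCL16 and CCL2 lie on chromosome 17 and CCL20 on chromosome 2. RefSeq promoter sequences of build GRCh38.p14 held 7 of the 9 genes, all except CXCL16 and CCL2. The motif GGAATTTCC, a form of the NF-kappaB consensus, was searched on both strands in the 250 bases before each start. It stood in all 6 member genes of the cluster and not in CCL20, against 145 of 35116 promoters (0.413%). PF4V1, PF4 and PPBP were not looked at singly for the motif. The 49-base windows around it are shown to set the bases around the shared motif side by side, with the motif in capitals and the strand of the gene read 5′ to 3′. They lie at chr4:73869295-73869343 (plus strand) for CXCL1, chr4:74099244-74099292 (minus) for CXCL2, chr4:74038739-74038787 (minus) for CXCL3, chr4:73998739-73998787 (minus) for CXCL5, chr4:73836569-73836617 (plus) for CXCL6 and chr4:73740458-73740506 (plus) for CXCL8.
CXCL1: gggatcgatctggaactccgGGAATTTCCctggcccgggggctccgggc
CXCL2: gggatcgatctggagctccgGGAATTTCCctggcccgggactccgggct
CXCL3: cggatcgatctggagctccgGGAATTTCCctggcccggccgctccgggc
CXCL5: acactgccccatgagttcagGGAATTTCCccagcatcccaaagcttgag
CXCL6: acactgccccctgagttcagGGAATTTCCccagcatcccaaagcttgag
CXCL8: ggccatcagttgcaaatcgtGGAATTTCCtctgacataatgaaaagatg

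The windows of CXCL5 and CXCL6 differed at 1 of 49 bases and those of CXCL1 and CXCL3 at 4, while CXCL8 differed from each of the others at 27 to 31, and CXCL1, CXCL2 and CXCL3 from CXCL5 and CXCL6 at 26 to 28. The first base of the motif lay between positions -91 and -77 from the start. The same letters with 1 more G in front were present in 5 of the 6, not in CXCL8, and in 0.142% of promoters. TGANTCA, the AP-1 site, stood only in CXCL8 among the 7 (6.573% of promoters). The core TGGGAA, found at sites of RBPJ, the DNA-binding partner of Notch, stood in CXCL5, CXCL6 and CCL20 (20.848% of promoters), and TATAAA in CXCL8 and CCL20 (10.716%). Motif matches are descriptions of these letters and say nothing of binding in these cells.

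The arrays were not alike in scale. Mean intensity was 468.1 to 495.7 in A549 vehicle at 6 h, 495.8 to 530.7 in arrays 1 and 2 and 583.4 to 589.3 in arrays 3 and 4 of A549 with the inhibitor at 6 h, and 570.2 to 613.5 in the other 24 arrays. For comparisons that use A549 at 6 h, main values after quantile normalization over all arrays are therefore given as well. Array 3 of H460a vehicle at 6 h had a 3′ actin probe set that exceeded the 5′ one by 2.193, against 0.142 to 0.415 in the other 31 arrays. HES1, a Notch target, was lower with the inhibitor in A549, by a limma difference of -1.63 ± 0.13 at 6 h (adjusted p = 8.67e-10) and -2.18 ± 0.13 at 24 h (adjusted p = 1.29e-13). In H460a it differed by -0.35 ± 0.13 (adjusted p = 0.324) and by -0.29 ± 0.13 (adjusted p = 0.823). As a yardstick for an absent transcript, 25 genes of other tissues had a median level of 5.92 and an upper quartile of 6.94. Of 9 leukocyte markers measured, with a summed intensity of 980 to 1402 per array, the group means of PTPRC, the pan-leukocyte CD45, lay between 5.13 and 5.49, while CD14 (8.09 to 9.14), CD79A (8.19 to 8.57) and ITGAM (7.03 to 7.21) lay above the upper quartile in every group. The group means of CXCL6 and CCL2 lie below that quartile, as do those of CCL20 in A549 at 6 h and in vehicle at 24 h, so the sizes of their differences are uncertain.

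**Figure D1:**
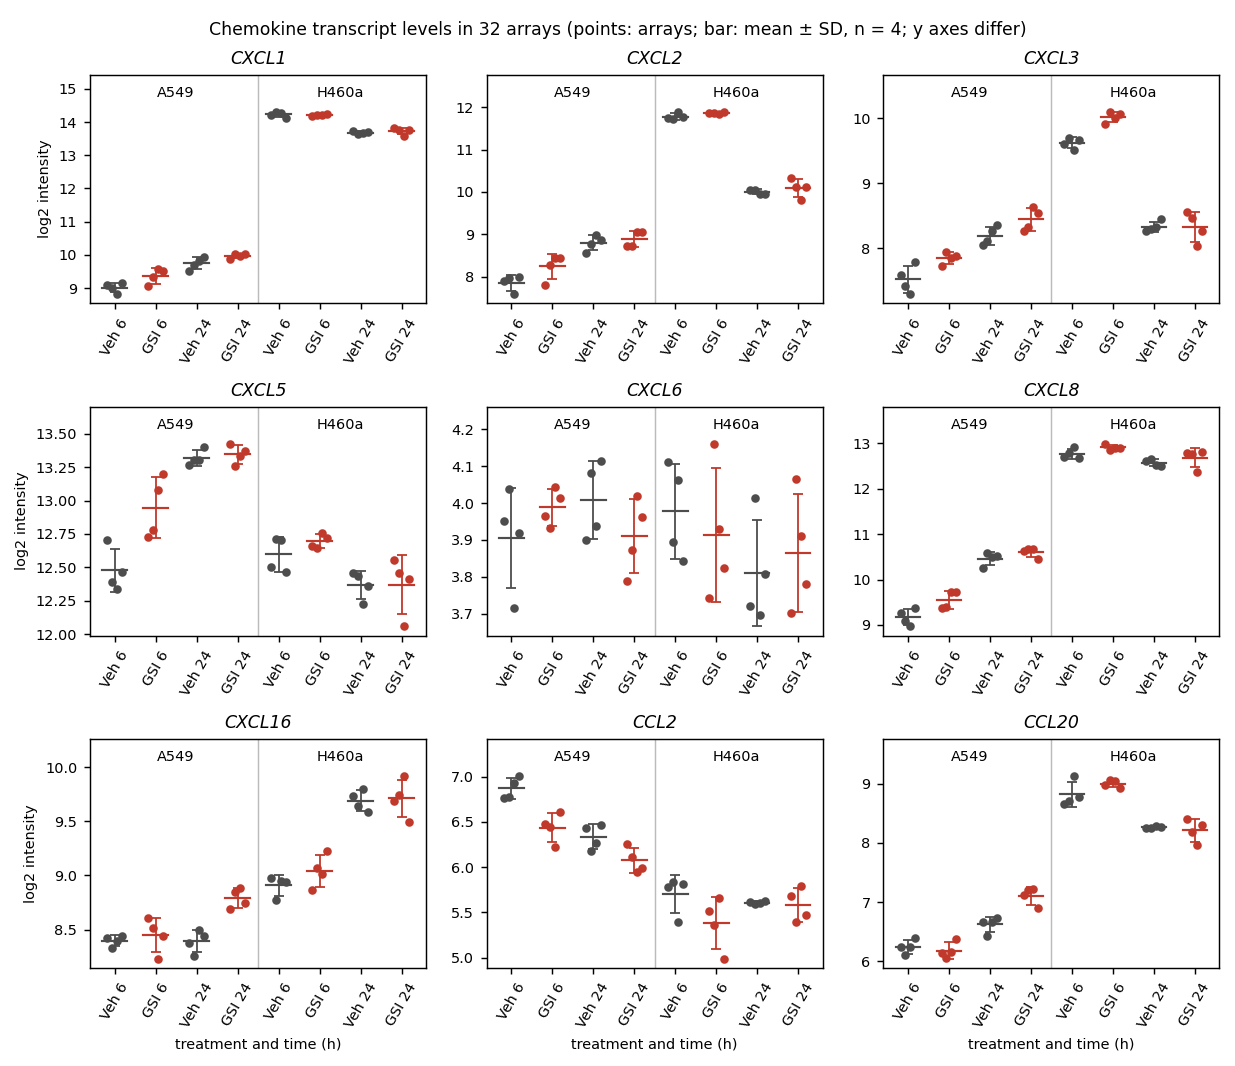
Log2 intensity of each gene's brightest probe set in the 32 arrays (y axis, scale differing by panel) by line, treatment and hours of exposure (x axis); points are arrays and bars the mean ± SD of 4. CXCL1, CXCL2, CXCL8 and CCL20 are higher in every H460a array than in every A549 array, CXCL3 and CXCL2 drop from 6 to 24 h in H460a, and CXCL6 stays between 3.70 and 4.16.

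The lines were compared in their vehicle arrays of 6 and 24 h, averaged over both times. H460a held far more transcript of CXCL1, CXCL2, CXCL8 and CCL20, and more of CXCL3, mainly at 6 h. A549 had more CCL2 and, at 24 h, more CXCL5. For CXCL2 the excess in H460a rests on 1 of its 3 probe sets. In the fit 8 of the 9 genes were called, 6 lower and 2 higher in A549, where 56.7% of all genes were called, 27.9% lower and 28.8% higher. CXCL1, the founding growth-regulated chemokine, lay between 13.65 and 14.30 in the 8 vehicle arrays of H460a and between 8.81 and 9.95 in those of A549. Its difference, A549 minus H460a and averaged over both times, was -4.58 ± 0.06 (adjusted p = 1.83e-34), a level 23.9-fold higher in H460a. CXCL8, or interleukin 8, the most studied human neutrophil attractant, lay between 12.50 and 12.91 in H460a and between 8.97 and 10.59 in A549. Its difference was -2.85 ± 0.07 (adjusted p = 2.42e-27), a level 7.23-fold higher in H460a. The lines did not overlap for either gene. After quantile normalization the same 8 genes were called in the same directions, at -4.42 for CXCL1, -2.69 for CXCL8, -2.49 for CXCL2, -2.12 for CCL20, -1.11 for CXCL3, -0.85 for CXCL16, 0.93 for CCL2 and 0.67 for CXCL5.

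CXCL2, a macrophage inflammatory protein, ran from 9.95 to 11.89 in H460a and from 7.59 to 9.00 in A549, a difference of -2.56 ± 0.08 (adjusted p = 6e-24). CXCL3, its close relative, differed by -1.12 ± 0.07 (adjusted p = 1.34e-15), and here the lines overlapped at 24 h, with 8.05 to 8.35 in A549 and 8.26 to 8.44 in H460a. CCL20 ran from 8.25 to 9.13 in H460a and from 6.11 to 6.74 in A549 (-2.11 ± 0.07, adjusted p = 6.94e-24). CXCL16 ran from 8.77 to 9.80 in H460a and from 8.26 to 8.49 in A549 (-0.90 ± 0.06, adjusted p = 4.51e-15). CXCL2, CCL20 and CXCL16 did not overlap between the lines.

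CCL2 was the gene with the clearest excess in A549, at 6.18 to 7.01 against 5.39 to 5.84 in H460a (0.95 ± 0.08, adjusted p = 2.56e-12), although both ranges sit near the background yardstick. CXCL5, an epithelial neutrophil attractant, was higher in A549 by 0.41 ± 0.07 (adjusted p = 3.34e-06, and 0.67 ± 0.06 after quantile normalization). That average hides the times, since CXCL5 vehicle means were 12.48 ± 0.16 (SD) in A549 and 12.60 ± 0.13 in H460a at 6 h, and 13.32 ± 0.06 and 12.37 ± 0.10 at 24 h. CXCL6 did not differ detectably (0.06 ± 0.06, 95% confidence interval -0.07 to 0.19), and its 8 group means lay between 3.81 and 4.01, with every neighbouring pair in that order overlapping.

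Ordered by level over all 8 groups, CXCL1, CXCL2, CXCL8 and CCL20 had the 4 H460a groups on top and the 4 A549 groups below, and the lowest H460a array of each was above the highest A549 array. CXCL3 had H460a at 6 h on top, then the 4 groups at 24 h of both lines at 8.19 to 8.44 with each neighbour in the order overlapping, and A549 at 6 h below. CXCL5 had A549 at 24 h on top, at 13.34 ± 0.07 with the inhibitor and 13.32 ± 0.06 in vehicle, above the other 6 groups. Within each line and time, vehicle and inhibitor did not overlap for CXCL3 in H460a at 6 h, CCL2 and CXCL5 in A549 at 6 h and CCL20 and CXCL16 in A549 at 24 h. The share of all genes without overlap is not given here, so this list is a description only.

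Culture time was examined in vehicle, 24 h against 6 h. Of the 6 neutrophil chemokine genes, CXCL1, CXCL2 and CXCL3 rose in A549 and fell in H460a over the same hours. CXCL5 and CXCL8 rose in A549 and were not called in H460a as deposited, and CXCL6 was called in neither line. In A549, 6 genes rose and 1 fell, where 44.2% of all genes were called, 29.2% higher and 15% lower. After quantile normalization 38.7% were called, 16.6% higher, and 7 members, again 6 higher and 1 lower, were called. The A549 vehicle arrays at 6 h are the 4 of low mean intensity, and with deposited values low intensity and culture time cannot be told apart.

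CXCL8 rose the most in A549, from 9.27, 9.08, 8.97 and 9.37 at 6 h to 10.25, 10.59, 10.49 and 10.52 at 24 h. All 4 later arrays are above all 4 earlier ones, and the difference was 1.29 ± 0.10 (adjusted p = 2.15e-11), or 1.07 after quantile normalization (adjusted p = 1.25e-10). CXCL2 went from 7.90, 7.96, 7.59 and 8.01 to 8.57, 8.78, 9.00 and 8.86 (0.94 ± 0.12, adjusted p = 1.24e-07, and 0.83 after quantile normalization). CXCL1 went from 9.08, 9.01, 8.81 and 9.15 to 9.52, 9.70, 9.81 and 9.95 (0.73 ± 0.09, adjusted p = 1.08e-07, and 0.53). Neither gene had overlapping arrays. CXCL3 rose by 0.68 ± 0.10 (0.62 after quantile normalization) and CCL20 by 0.38 ± 0.10 (0.44).

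CXCL5 is the gene whose size moved most with scaling, at 0.84 ± 0.10 as deposited and 0.40 after quantile normalization (adjusted p = 0.000124). Its 4 arrays at 24 h, 13.26, 13.30, 13.30 and 13.40, lay above those at 6 h, 12.71, 12.39, 12.34 and 12.47. CCL2 moved the other way, from 6.76, 6.78, 6.93 and 7.01 to 6.43, 6.18, 6.27 and 6.47 (-0.53 ± 0.11, adjusted p = 0.000299, and -0.48 after quantile normalization). CXCL16 (95% confidence interval -0.18 to 0.17) and CXCL6 (0.10 ± 0.09) were not called.

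In H460a 4 genes fell and 1 rose, where 30.4% of all genes were called, 15.3% lower and 15.1% higher. CXCL2 had the largest fall, from 11.73, 11.72, 11.89 and 11.77 at 6 h to 10.05, 10.06, 9.96 and 9.95 at 24 h. It fell by 1.77 ± 0.12 (adjusted p = 8.38e-14), a level 3.42-fold lower. CXCL3 fell from 9.61, 9.71, 9.52 and 9.67 to 8.26, 8.29, 8.33 and 8.44, by 1.30 ± 0.10 (adjusted p = 4.26e-12). CCL20 fell by 0.55 ± 0.10 and CXCL1 by 0.54 ± 0.09, with no overlap of arrays.

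CXCL16 rose in H460a, from 8.98, 8.77, 8.95 and 8.94 to 9.74, 9.64, 9.80 and 9.58 (0.78 ± 0.09, adjusted p = 5.65e-09). It is the member whose direction was opposite to the rest of the called genes there. Of the 9 leukocyte markers, 1 was called there, CD14, a monocyte gene, which rose by 1.03 ± 0.07. The summed intensity of the 9, CD14 included, was 980 to 1110 at 6 h and 1291 to 1398 at 24 h. Their median level was 5.97 at 6 h and 6.02 at 24 h. The part of these markers in the result was not tested. CXCL5 (-0.23 ± 0.10, adjusted p = 0.0793) and CXCL8 (-0.19 ± 0.10, adjusted p = 0.15) had arrays that did not overlap and were not called, and both were called lower after quantile normalization (adjusted p = 0.0123 and 0.0407), which made 7 members called against 32.1% of all genes.

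The test of the difference between the time changes, A549 minus H460a, called 8 of the 9 genes, 6 higher and 2 lower, where 35.5% of all genes were called, 24.4% higher and 11.1% lower. It was 2.71 ± 0.16 for CXCL2 (adjusted p = 1.24e-13), 1.97 ± 0.14 for CXCL3, 1.48 ± 0.14 for CXCL8, 1.27 ± 0.13 for CXCL1, 1.06 ± 0.14 for CXCL5 (0.65 after quantile normalization) and 0.93 ± 0.14 for CCL20. For CXCL16 it was -0.78 ± 0.12 (adjusted p = 5.17e-06) and for CCL2 -0.43 ± 0.16 (adjusted p = 0.0348). CCL2 lost its call after quantile normalization (adjusted p = 0.0504) and under 12 alternatives in all, the minimum difference aside. Among them were single arrays left out, with adjusted p between 0.0521 and 0.103: A549 vehicle 3 or 4 at 6 h and 2 or 3 at 24 h, and H460a vehicle 3 at 6 h and 4 at 24 h. CXCL6, at 0.27 ± 0.13, was not called. After quantile normalization the difference was 2.56 for CXCL2, 1.87 for CXCL3, 1.29 for CXCL8, 1.15 for CXCL1, 0.98 for CCL20, 0.65 for CXCL5 and -0.94 for CXCL16, all called, while CCL2 was no longer called (-0.40, adjusted p = 0.0504).

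**Figure D2:**
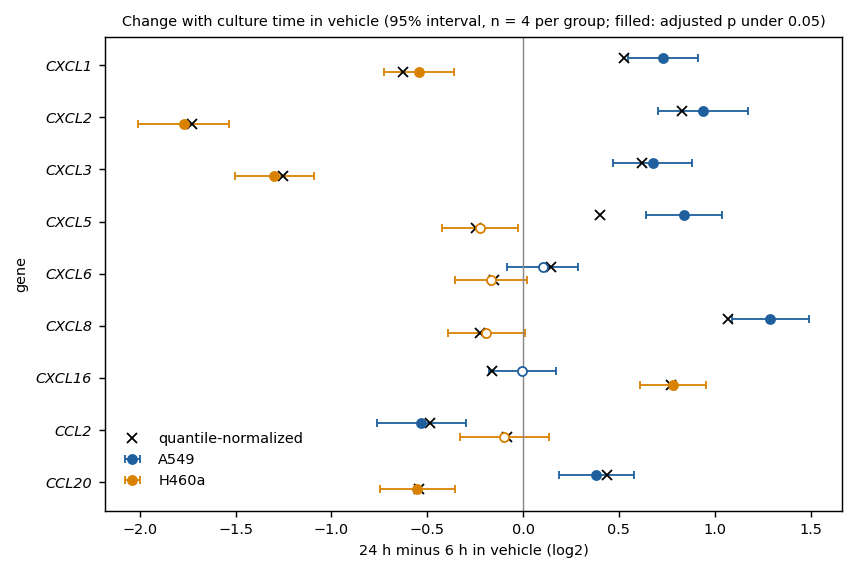
Log2 difference between 24 h and 6 h in vehicle (x axis) for each gene (y axis) in A549 and H460a, with the 95% confidence interval of the limma fit, filled where adjusted p was under 0.05; crosses are the differences after quantile normalization over all arrays. CXCL1, CXCL2, CXCL3 and CCL20 are called higher in A549 and lower in H460a, and CXCL16 is called higher in H460a only.

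The inhibitor was compared with vehicle in A549 at 24 h to show which chemokine transcripts had changed after a day. CXCL16 and CCL20 were higher and none of the 6 neutrophil chemokines was called, so 2 of 9 members were called where 2.21% of all genes were, 1.32% higher and 0.885% lower. After quantile normalization the same 2 members were called, where 3.07% of genes were. CCL20 stood at 6.67, 6.43, 6.66 and 6.74 in vehicle and at 7.12, 7.21, 7.23 and 6.89 with the inhibitor. The groups did not overlap, and the difference was 0.49 ± 0.10 (adjusted p = 0.00207), or 1.40-fold. CXCL16 stood at 8.38, 8.26, 8.49 and 8.44 in vehicle and at 8.69, 8.85, 8.88 and 8.75 with the inhibitor. These groups did not overlap either, and the difference was 0.40 ± 0.09 (adjusted p = 0.00533), or 1.32-fold. Both were called after quantile normalization (adjusted p = 0.000669 and 0.0136) and with any single array left out.

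Among the others at 24 h CXCL3 differed by 0.25 ± 0.10 (95% confidence interval 0.05 to 0.46, adjusted p = 0.274), CXCL1 by 0.23 ± 0.09, CXCL8 by 0.14 ± 0.10, CXCL2 by 0.09 ± 0.12 and CXCL5 by 0.03 ± 0.10. CXCL6 differed by -0.10 ± 0.09. CCL2 stood at 6.26, 6.11, 5.94 and 6.00 with the inhibitor against 6.43, 6.18, 6.27 and 6.47, overlapping ranges with a difference of -0.26 ± 0.11 (adjusted p = 0.342). The 9 members had a median difference of 0.14, against 0.01 over all genes.

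In A549 at 6 h the deposited values gave 6 called members, 5 of the neutrophil chemokines higher and CCL2 lower, where 13.1% of all genes were called, 11.6% higher and 1.51% lower. After quantile normalization 1 member, CCL2, was called, where 2.82% of all genes were. CXCL5 stood at 12.71, 12.39, 12.34 and 12.47 in vehicle and at 12.73, 12.78, 13.08 and 13.20 with the inhibitor, a difference of 0.47 ± 0.10 (adjusted p = 0.00434, and 0.21 with adjusted p = 0.116 after quantile normalization). The 2 highest values belong to arrays 3 and 4. Their mean intensity was above that of vehicle and of arrays 1 and 2, and within the range of the other 24 arrays. CXCL2 differed by 0.39 ± 0.12, CXCL8 by 0.38 ± 0.10, CXCL1 by 0.36 ± 0.09 and CXCL3 by 0.33 ± 0.10. After quantile normalization these were 0.34, 0.26, 0.24 and 0.32, with adjusted p between 0.0643 and 0.0789.

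For CXCL1 the inhibitor arrays at 6 h were 9.05, 9.33, 9.56 and 9.53 against 9.08, 9.01, 8.81 and 9.15 in vehicle, so that array 1 lay within the vehicle range and arrays 3 and 4 were the highest. With arrays 3 and 4 and H460a vehicle array 3 at 6 h left out, which leaves 2 inhibitor arrays, CXCL1 differed by 0.18 (adjusted p = 0.63), CXCL8 by 0.20 (adjusted p = 0.625) and CXCL3 by 0.32 (adjusted p = 0.531), and no member was called. CCL2 stood at 6.48, 6.44, 6.23 and 6.61 with the inhibitor, all below the 6.76, 6.78, 6.93 and 7.01 of vehicle (-0.43 ± 0.11, adjusted p = 0.0141). It was -0.42 after quantile normalization (adjusted p = 0.0361) and -0.41 without the 3 arrays (adjusted p = 0.348). Without vehicle array 3, inhibitor array 3 or inhibitor array 4 the count of called members was 1, 1 and 2. Over all genes these fits called 499, 167 and 312, against 2600 with all arrays. CXCL3 lost its call also without vehicle array 2 (adjusted p = 0.0705) or inhibitor array 2 (adjusted p = 0.0579). CXCL16 (0.05 ± 0.09), CCL20 (-0.06 ± 0.10) and CXCL6 (0.08 ± 0.09) were not called.

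In H460a the limma fit called 0 of the 9 members at either time. At 6 h 0.0961% of all genes were called and 2 members had an unadjusted p under 0.05, and at 24 h 0.00506% and 0 members. At 6 h CXCL3 stood at 9.92, 10.09, 10.01 and 10.08 with the inhibitor, all above the 9.61, 9.71, 9.52 and 9.67 of vehicle. The difference, 0.40 ± 0.10, had an adjusted p of 0.149, and of 0.0356 when arrays were weighted by their spread. The other was CCL2, at -0.33 ± 0.11 (adjusted p = 0.299) with overlapping arrays. CCL20 differed by 0.18 ± 0.10, CXCL8 by 0.15 ± 0.10, CXCL16 by 0.13 ± 0.09 and CXCL1 by -0.01 ± 0.09.

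At 24 h in H460a the 9 differences lay between -0.06 for CCL20 and 0.11 for CXCL8, and the 95% confidence intervals reached at most 0.32 in size. For CXCL16 the interval was -0.15 to 0.20 and for CCL20 -0.25 to 0.14. Array 3 of the inhibitor group was the lowest of its 4 for 6 of the 9 members and had the mean intensity of 570.2, and CXCL8 there was 12.36 against 12.77 to 12.81 in the other 3.

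**Figure D3:**
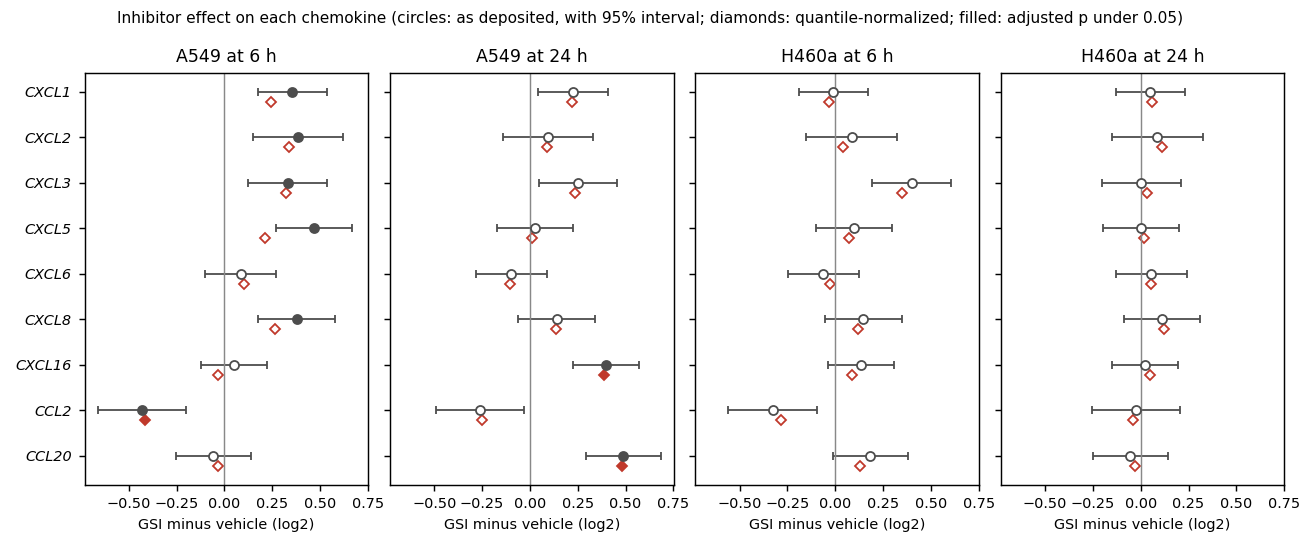
Log2 difference between inhibitor (GSI) and vehicle (x axis) for each gene (y axis) in each line and time, with the 95% confidence interval of the limma fit on deposited values (circles) and the difference after quantile normalization over all arrays (diamonds); filled marks had adjusted p under 0.05. CXCL16 and CCL20 in A549 at 24 h and CCL2 in A549 at 6 h are filled on both scales, and no mark is filled in H460a.

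Averaged over both lines and both times, CXCL3 (0.25 ± 0.05, adjusted p = 0.0045) and CXCL8 (0.19 ± 0.05, adjusted p = 0.0287) were higher with the inhibitor and CCL2 lower (-0.26 ± 0.06, adjusted p = 0.00792), 3 of 9 members where 2.18% of all genes were called, 1.79% higher and 0.399% lower. After quantile normalization the same 3 members were called, at 0.23, 0.16 and -0.25, where 1.79% of genes were. CXCL8 was not called without the 3 arrays that stand apart (0.16, adjusted p = 0.0897), and 8 single arrays left out took its adjusted p to between 0.0505 and 0.06. They were A549 vehicle 3 and inhibitor 3 and 4 at 6 h, A549 vehicle 1 and inhibitor 3 at 24 h, and H460a vehicle 4 and inhibitor 1 and 2 at 24 h. CXCL16 (0.15 ± 0.04, adjusted p = 0.0524) and CXCL1 (0.16 ± 0.04, adjusted p = 0.0572) lay just outside the threshold. The count of called members was 7 without H460a inhibitor array 3 at 24 h, and 6 without A549 inhibitor array 1 or H460a vehicle array 3 at 6 h. It was 5 without A549 inhibitor array 1 at 24 h. Over all genes these fits called 890, 885, 666 and 500, in that order, against 432 with all arrays.

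Inhibitor effects were also tested against each other, between times and between lines. CCL20 had an effect in A549 that was higher at 24 h than at 6 h by 0.55 ± 0.14 (adjusted p = 0.027, and 0.0254 after quantile normalization), the 1 member called where 3.71% of genes were (2.16% after quantile normalization). That call was lost without any of 5 single arrays, with adjusted p between 0.0566 and 0.0802. They were vehicle 3 or 4 or inhibitor 3 at 6 h and vehicle 2 or inhibitor 2 at 24 h. Without them 103 to 325 genes were called, against 733 with all arrays. The count of members rose to 3 without inhibitor array 1 and to 2 without vehicle array 1 or inhibitor array 2 at 6 h. Over all genes these fits called 1948, 1071 and 1512. Between the lines at 24 h the effect on CCL20 was higher in A549 by 0.54 ± 0.14. Its adjusted p was 0.0531 as deposited and 0.0349 after quantile normalization, where 0.834% of genes were called. It was called also without A549 inhibitor array 4 (adjusted p = 0.0284) or H460a inhibitor array 1 (adjusted p = 0.0302). No member was called there in the deposited values, where 0.637% of genes were and 2 members had an unadjusted p under 0.05. For CXCL16 the difference between lines was 0.37 ± 0.12 (adjusted p = 0.224) and between times 0.35 ± 0.12 (adjusted p = 0.0897, and 0.42 with adjusted p = 0.0823 after quantile normalization). At 6 h the limma fit called 0 members between the lines, with 2 under an unadjusted p of 0.05 and 0.121% of genes called. Without A549 inhibitor array 1 the limma fit called CXCL1 (adjusted p = 0.0175), and 844 genes where 24 were called with all arrays. Between the times in H460a it called 0, with 1 and 0.0101%.

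Of the 9 genes 3 have more than 1 probe set, and these were fitted again with all 41091 probe sets that name 1 gene. The 2 probe sets of CXCL8 moved together over time in A549 and between the lines. The set 211506_s_at, which is not the one used above, rose in vehicle A549 over time by 1.03 ± 0.09. It differed between A549 and H460a by -3.45 ± 0.06, and was higher with the inhibitor in A549 at 6 h by 0.44 ± 0.09. That last difference had adjusted p = 0.0059, and adjusted p = 0.0148 after quantile normalization, where the set used above had 0.109. Of all probe sets 7.34% were called in that comparison. Over time in vehicle H460a, 211506_s_at was not called (-0.07 ± 0.09, adjusted p = 0.664). After quantile normalization it gave -0.04 there (adjusted p = 0.788). The set used above, 202859_x_at, had adjusted p = 0.175 in this fit, and 0.052 after quantile normalization.

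The 3 probe sets of CXCL5 all rose over time in vehicle A549, 214974_x_at by 0.84 ± 0.10, 215101_s_at by 0.64 ± 0.16 and 207852_at by 0.44 ± 0.10, where 35.6% of probe sets were called. After quantile normalization 215101_s_at was not called there (0.27, adjusted p = 0.213). In H460a 207852_at fell by 0.41 ± 0.10 over time (adjusted p = 0.00263), where 25.3% of probe sets were called. With the inhibitor in A549 at 24 h they gave 0.03 ± 0.10, 0.43 ± 0.16 and 0.31 ± 0.10, none called. In 215101_s_at the 4 inhibitor arrays, 12.36, 12.35, 12.52 and 12.57, lay above the 4 vehicle arrays, 12.02, 12.12, 11.98 and 11.95. H460a vehicle array 3 at 6 h, the array with the high actin ratio, had 10.25 in this probe set against 11.44 to 11.54 in its group.

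For CXCL2 the results rest on 209774_x_at alone. An x in the name marks probe sets with probes that can match related transcripts. The sets used above for CXCL5 (214974_x_at) and CXCL8 (202859_x_at) carry it as well. The other CXCL2 sets, 1569203_at and 230101_at, had group means of 5.20 to 5.70, and differed between the lines by -0.06 ± 0.06 and -0.02 ± 0.06. In H460a 1569203_at changed over time by -0.38 ± 0.08 (adjusted p = 0.00068). With the inhibitor in A549 at 6 h it gave -0.08 ± 0.08, opposite in sign to the set used. Over time in A549 the 2 dim sets gave 0.05 ± 0.08 and -0.14 ± 0.09, not called.

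**Figure D4:**
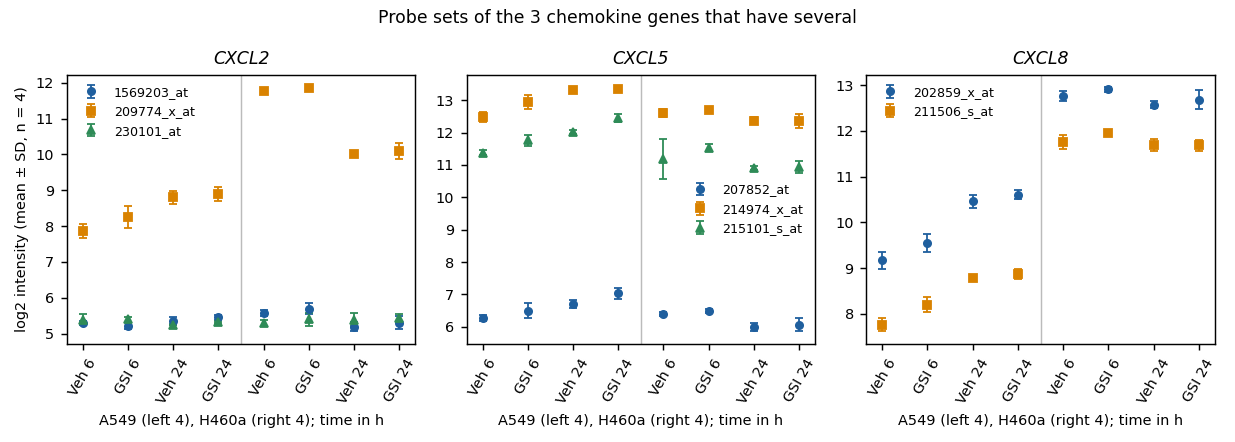
Mean ± SD (n = 4) of log2 intensity (y axis) for every probe set of CXCL2, CXCL5 and CXCL8 by line, treatment and hours (x axis). The CXCL5 and CXCL8 sets rise together over time in A549, and 2 of the CXCL2 sets stay between 5.20 and 5.70 while the third covers 7.87 to 11.86.

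Of 25 other chemokine ligands measured, limma called 0 with the inhibitor in either line at either time, on deposited or quantile-normalized values. At an unadjusted p under 0.05 there were 3 and 2 in A549 and 2 and 1 in H460a, at 6 and 24 h. Of all genes, 13.1% and 2.21% were called at these times in A549, and 0.0961% and 0.00506% in H460a, as deposited. Over time in vehicle A549, 9 of the 25 fell and 0 rose, where 15% of all genes fell, and after quantile normalization 6 fell and 0 rose, where 22.1% of all genes fell. Of the 25 ligands, 15 had every group mean below the upper quartile of the yardstick genes, and 6 of the 9 that fell as deposited were among these. The ligands that fell included CCL5 (-0.57 ± 0.11) and CCL26 (-0.48 ± 0.14). In H460a limma called 0, with 1 at an unadjusted p under 0.05, where 30.4% of all genes were called. CCL26, an eosinophil attractant, was 2.39 ± 0.10 higher in A549 than in H460a. With the inhibitor in A549 at 24 h, 0.885% of all genes fell and 1.32% rose. Of 21 chemokine receptors measured, 1 fell in that comparison and 0 rose. This was ACKR3, an atypical receptor that binds CXCL12 without classical signalling, which fell by 0.81 ± 0.11 (adjusted p = 8.66e-06), and by 0.37 ± 0.11 at 6 h (adjusted p = 0.0233). Its level in H460a was 4.83 to 4.93 over the group means, below the yardstick. CXCR1 and CXCR2, the receptors of the neutrophil chemokines, differed by 0.05 ± 0.09 and 0.01 ± 0.08 in A549 at 24 h. The level of CXCR2 there was 4.485 in vehicle and 4.494 with the inhibitor, below the yardstick, so its difference says little.

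Of 22 genes of NF-kappaB subunits, kinases and inhibitors, 1 rose and 0 fell with the inhibitor in A549 at 24 h. Of all genes 1.32% rose and 0.885% fell in that comparison. The 1 gene was NFKBIZ, a nuclear cofactor of NF-kappaB (0.56 ± 0.10, adjusted p = 0.00108). At 6 h 4 rose as deposited, NFKBIA, NFKBIZ, CYLD and MAP3K7, where 11.6% of all genes did, and 2 after quantile normalization, NFKBIZ and CYLD, where 1.34% did. In H460a limma called 0 of 22 at either time, with 5 and 2 at an unadjusted p under 0.05, where 0.0961% and 0.00506% of all genes were called. Between the lines in vehicle 9 were higher and 11 lower in A549, where 28.8% and 27.9% of all genes were, with TNFAIP3, an inhibitor of NF-kappaB, at a difference of -4.78 ± 0.06. Over time in vehicle 8 rose and 1 fell in A549, where 29.2% of all genes rose and 15% fell (5 and 6 after quantile normalization, where 16.6% and 22.1% did). In H460a 2 rose and 7 fell, where 15.1% rose and 15.3% fell.

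Of 24 inducing cytokines and their receptors, 2 rose and 0 fell with the inhibitor in A549 at 24 h, where 1.32% and 0.885% of all genes did. The 2 were IL6R, by 0.45 ± 0.10 (adjusted p = 0.00657), and TNFRSF1A, by 0.22 ± 0.06 (adjusted p = 0.0478). In vehicle IL6 differed between A549 and H460a by -5.66 ± 0.07 and IL18 by 4.15 ± 0.08. Of 11 regulators of AU-rich mRNA decay, ZFP36, which destabilizes such transcripts, rose by 0.36 ± 0.06 and its relative ZFP36L1 fell by 0.43 ± 0.11 in A549 at 24 h. At 6 h 7 of the 11 were called higher as deposited, where 11.6% of all genes were, and 0 after quantile normalization, where 1.34% were. ADAM10 and ADAM17, the proteases that release CXCL16, differed in A549 at 24 h by -0.04 ± 0.09 and -0.07 ± 0.08. At 6 h they were called higher as deposited, at 0.28 ± 0.09 and 0.31 ± 0.08, and neither was called after quantile normalization.

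Likeness of pattern was measured by Pearson's r over the 32 arrays after each line's mean was removed, among the 9886 or 9887 genes above the median level. It is a description over arrays that share culture time and scale. CXCL2 was closest to SRSF1, a splicing factor (0.97, and 0.90 after quantile normalization), and CXCL3 (0.97 on both scales), and CXCL3 was closest to CXCL2. CXCL8 was closest to SERINC5 (0.98), CXCL1 to TMED5 (0.97) and CXCL5 to SEC63 (0.96, and 0.88 after quantile normalization). CXCL16 was closest to EPHX2, the soluble epoxide hydrolase (0.93), CCL20 to the zinc transporter gene SLC39A11 (0.91), CCL2 to CD4 (0.78) and CXCL6 to RGS19 (0.57). For CXCL6 that r was 0.39 after quantile normalization, below the 0.58 of PLAT. Among the members CXCL16 had a negative r with CXCL2 (-0.67) and CXCL3 (-0.61), and CCL2 with CXCL8 (-0.73).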

How the data were processed

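RNA of 32 samples was measured on Affymetrix arrays. The authors deposited an intensity per probe set, made with RMA per the submitters' processing notes, whose version is not given in the sources used here. Their size shows that the deposited intensity values are linear. The log2 of each deposited value was taken here with no other scaling. A label on embryos fits no other label and was not used. The 62 control probe sets, 1801 with several symbols and 11721 with no gene named were left out. For each gene the probe set with the highest mean was used.

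Means of 8 groups were fitted with limma 3.58.1 in R 4.3.3 (lmFit, eBayes), with 13 contrasts and Benjamini-Hochberg adjustment over genes. The precision is limited by the number of arrays. Figures used matplotlib 3.10.9 and pandas 2.3.3 in Python 3.11.15. The fit was tested on simulated data. The members and gene lists were chosen with earlier results of these data known, so the lists support nothing by themselves. Named are all members with every probe set, up to 4 genes of a list past the threshold with the largest difference in a comparison, CXCR1, CXCR2, ADAM10 and ADAM17, and for each member the genes with the highest r. HES1, the leukocyte markers and the array facts are given as checks.

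Alternatives were other scalings, probe set rules, filters, eBayes settings, array weights, a replicate block, a minimum difference of 0.58, the comparison's own arrays, and arrays left out. Of these, quantile normalization without 3 arrays and leaving out 4 arrays were added after seeing the data.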

Additional observations from a re-analysis of the deposited data

Results flagged for a closer look

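In 2 of 72 sets of a gene and a group, 1 array lay far from the other 3, where chance alone would give about 1 in 20. CXCL8 in H460a with the inhibitor at 24 h was 12.3647 in array 3, against 12.7721 to 12.813. CCL2 in H460a vehicle at 6 h was 5.3943 in array 3, the array with the high actin ratio, against 5.785 to 5.8406.

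Effects of the same contrast differed between groups by the limma test of the difference in 9 cases. The inhibitor effect on CCL20 in A549 was higher at 24 h than at 6 h by 0.546886. The time change in vehicle was higher in A549 than in H460a for CXCL1 (1.27), CXCL2 (2.71), CXCL3 (1.97), CXCL5 (1.06), CXCL8 (1.48) and CCL20 (0.93), and lower for CXCL16 (-0.78) and CCL2 (-0.43).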

How the results depend on the processing

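Of 40 called results on single members, 29 kept their direction and call under every alternative that tested the gene, except the minimum difference of 0.58. Results on CCL2 and CCL20 were not tested where genes under the median level were left out, since that filter removes both. Of the 40, 11 lost the call under at least 1, and 1 was reversed. CXCL2 with the inhibitor in A549 at 6 h was -0.083 when probe sets ending in _x_at were left out. Counts of called members changed as follows. Calls over all genes moved with the same settings, in the average between 336 and 1884 where the main fit gave 432. The share of all genes in each setting is not given here, so a changed count is no result about the members alone. In A549 at 6 h the 6 became 1 with quantile normalization, be it of all arrays or line by line, and 0 with the comparison's own arrays, without 3 or without 4 arrays that stand apart, with quantile normalization and without the 3, and with a difference of at least 0.58; single arrays left out gave 1 to 6. In A549 at 24 h the 2 became 1 where genes under the median level were left out, a filter that removes CXCL6, CCL2 and CCL20, and 0 with 0.58. In H460a at 6 h array weights gave 1. In the average the 3 became 6 with the mean of probe sets, 5 with trend and robust, 8 with array weights, 6 without 4 arrays and 0 with 0.58, and 2 to 7 without single arrays. Between lines at 6 h single arrays gave 0 to 1. Between lines at 24 h the 0 became 1 with the mean of probe sets, both quantile normalizations, array weights, without 3 arrays, and without them after quantile normalization, 2 without 4 arrays, and 0 to 1 without single arrays. Between times in A549 the 1 became 2 where dim genes were left out, 2 with trend and robust, 3 with array weights and 0 with 0.58, and 0 to 3 without single arrays. Over time in H460a vehicle the 5 became 3 with 0.58. In the other comparisons the counts stayed within 1.5 times. The causes were not tested.

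Counts over all genes with the inhibitor ran from 22 to 3180 in A549 at 6 h (2600 as deposited), from 373 to 1169 at 24 h (437), from 2 to 110 in H460a at 6 h (19), from 0 to 14 at 24 h (1) and from 336 to 1884 in the average (432). For differences between effects they ran from 9 to 217 between lines at 6 h (24), 89 to 289 at 24 h (126), 55 to 1852 between times in A549 (733) and 1 to 6 in H460a (2). The minimum difference, left out of these ranges, gave 33, 64, 2, 0, 3, 16, 65, 154 and 2, and took the vehicle comparisons from 8731 to 1516 (A549 time), 6004 to 1383 (H460a time), 7023 to 2420 (their difference) and 11205 to 4166 (lines). Single arrays left out gave 167 to 3834 genes in A549 at 6 h and 103 to 1948 between its times. Same-numbered arrays did not deviate together in every pair (correlations of -0.35 to 0.317). With 4 arrays per group this cannot settle whether equal numbers mark paired samples, and the main fit did not pair them. A replicate block left all 13 counts of called members as they were, with 6 in A549 at 6 h, and took the count of genes in the difference between times in A549 from 733 to 423. Dim genes, here CXCL6, CCL2 and CCL20 in A549, are limited by the background.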
